A study of Mus musculus with 10 samples.

Results

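The 10 genes studied belong to the IL-10, IL-6 and IL-12 cytokine families and their receptors, and were followed in RNA-seq of sorted lung macrophages. They were taken by name, and all 10 were found among the 24538 genes of the count files. Of these, 5 encode secreted chains (Il10, Il6, Il12b, Il27 and Ebi3) and 5 encode receptor chains (Il10ra, Il10rb, Il6ra, Il6st and Il12rb1). The study compared 5 libraries of metastasis-associated macrophages (MAMs) with 5 libraries of resident alveolar macrophages (RAMs), all from wild-type mice of 8-10 weeks. MAMs were the CD11B+ CD11C- cells of lung metastases that E0771-LG mammary tumor cells, injected into the tail vein of female C57BL6/J mice of 6-8 weeks, had formed. The metastases were under 1 mm across and were pooled from 2 to 4 mice per sample, per the labels. RAMs were the CD11B- CD11C+ cells of normal lungs without injected tumor cells. Both populations were gated as CD45+, F4/80+, LY6C-, MRC1+ and high in forward scatter, and transcription inhibitors were present during digestion. The presence of metastases and the sorted subset changed together, so their parts in any difference cannot be told apart. The groups are also whole populations, in which fewer cells of a type and less RNA per cell cannot be told apart.

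IL-10 is the main cytokine by which macrophages limit their own inflammatory output. It signals through a private chain, IL-10RA, and a chain shared with other cytokines, IL-10RB, to JAK1, TYK2 and the transcription factor STAT3. IL-6 binds IL-6RA, and this pair then engages gp130, the product of Il6st, which is the common signal chain of the IL-6 family. The IL-12 family is built from shared chains. The p40 chain made by Il12b pairs with p35 (Il12a) in IL-12 and with p19 (Il23a) in IL-23, whereas EBI3 pairs with p28 (Il27) in IL-27. IL-12RB1 is the receptor chain that binds p40. In macrophages most of these ligands are induced by microbial and inflammatory signals and are held back by IL-10.

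The libraries held between 50746305 and 87523247 counts on genes, and no pair of libraries within a group was identical. Levels are given as CPM, counts scaled to a common library size after TMM normalization, and comparisons between genes use the FPKM of the authors, which also divide by transcript length. The sort markers were as labelled, with Itgam (CD11B) at 5848 to 6844 CPM across MAMs against 59.5 to 72.2 across RAMs, and Itgax (CD11C) at 145 to 240 and 880 to 1110. Of 7 genes that mark alveolar macrophages, 6 were lower in MAMs and none was higher, and the 5 genes that mark monocytes were all higher in MAMs. By the same test, described below, 27.3% of all genes tested were lower and 28.9% were higher. Of the 5 monocyte genes, 3 reached the FPKM limit for testing in MAMs only, so they had to be higher there. The 7 genes of fibroblasts and endothelium summed to 42.2 to 95.7 CPM in MAMs against 2.13 to 12.0 in RAMs, with Kdr the most abundant. The 9 dendritic cell genes, led by Ccl22, summed to 9.35 to 21.4 CPM in MAMs against 33.9 to 60.1 in RAMs. The 9 neutrophil genes, led by Mmp8, summed to 23.1 to 83.0 CPM and 42.6 to 85.6, and Elane was at 0 in every library. S100a8 and S100a9 were higher in MAMs, at means of 4.12 and 3.88 CPM against 1.89 and 0.350 in RAMs, with overlap for S100a9. Ly6g ran from 0 to 1.48 CPM in MAMs and was at 0 in RAMs. The 10 lymphocyte genes, led by Cd2, summed to 23.6 to 39.4 CPM and 257 to 329. The 7 epithelial genes, led by Krt19, summed to 6.89 to 22.6 CPM and 456 to 593.

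Of the 10 genes, 5 had a RefSeq entry in the table of gene starts used here. The 250 bases before the start of Il6, Ebi3 and Il12b are shown because these are the ligand genes with the widest differences between MAMs and RAMs. All 3 are on the plus strand of GRCm38.p6 and are written 5′ to 3′, with capitals on matches to 6 motifs searched on both strands. The Il6 stretch is chr5:30012864-30013113, the Ebi3 stretch is chr17:55952373-55952622 and the Il12b stretch is chr11:44399813-44400062.
Il6: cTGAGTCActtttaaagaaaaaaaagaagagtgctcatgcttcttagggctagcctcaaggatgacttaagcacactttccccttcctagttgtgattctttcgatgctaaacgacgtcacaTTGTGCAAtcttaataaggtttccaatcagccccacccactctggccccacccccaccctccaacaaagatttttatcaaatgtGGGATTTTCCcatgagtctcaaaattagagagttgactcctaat
Ebi3: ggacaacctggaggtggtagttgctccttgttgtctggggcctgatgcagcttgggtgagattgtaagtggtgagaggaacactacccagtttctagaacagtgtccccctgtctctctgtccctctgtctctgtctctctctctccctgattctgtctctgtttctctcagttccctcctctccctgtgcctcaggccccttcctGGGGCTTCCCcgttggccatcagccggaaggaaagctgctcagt
Il12b: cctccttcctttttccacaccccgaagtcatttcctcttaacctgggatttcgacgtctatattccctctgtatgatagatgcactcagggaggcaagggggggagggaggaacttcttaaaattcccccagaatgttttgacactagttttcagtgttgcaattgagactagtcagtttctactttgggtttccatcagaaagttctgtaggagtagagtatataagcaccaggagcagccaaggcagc

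The motifs were the kappa B consensus, STAT (TTCNNNGAA), AP-1 (TGANTCA), CRE (TGACGTCA), C/EBP (TTGCNNAA) and IRF (GAAANNGAA). In the same 250 bases of 32851 gene starts, 3.90% held the kappa B consensus, 7.02% the STAT motif, 6.75% AP-1, 1.55% CRE, 9.56% C/EBP and 7.13% IRF. The Il6 stretch had a kappa B match at -44 to -35 from the start, a C/EBP match at -128 to -121 and an AP-1 match at -249 to -243, where -1 is the last base before the start. The Ebi3 stretch had 1 match, to kappa B, also at -44 to -35. The Il12b stretch, and those of Il6ra and Il6st, which are not shown, held none of these letters. Such matches describe the sequence and do not show binding.

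Of the 10 genes, 8 could be tested, because testing was limited to genes whose FPKM averaged 1 or more in either group. Il10 and Il6 passed this limit through MAMs only, so they had to be higher there. Of the 8, Il10, Il6, Ebi3, Il10ra and Il10rb were differentially expressed upward in MAMs. That call needed more than a 2-fold change together with a Benjamini-Hochberg adjusted p below 0.05 by the quasi-likelihood test of edgeR. SE is the standard error of a log2 fold change. Among all 11571 genes tested, 15.3% were called upward in this way and 15.1% downward. Il6st was the only member of the 8 called downward. At an adjusted p under 0.05 whatever the fold, 5 of the 8 were higher and 2 were lower in MAMs, beside 28.9% and 27.3% of all genes tested. The median log2 fold change of the 8 was 1.80 and that of all genes tested was -0.02. MAM libraries lay above every RAM library for 5 of the 8 and below every RAM library for 1, as for 23.7% and 21.2% of all genes tested.

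**Figure D1:**
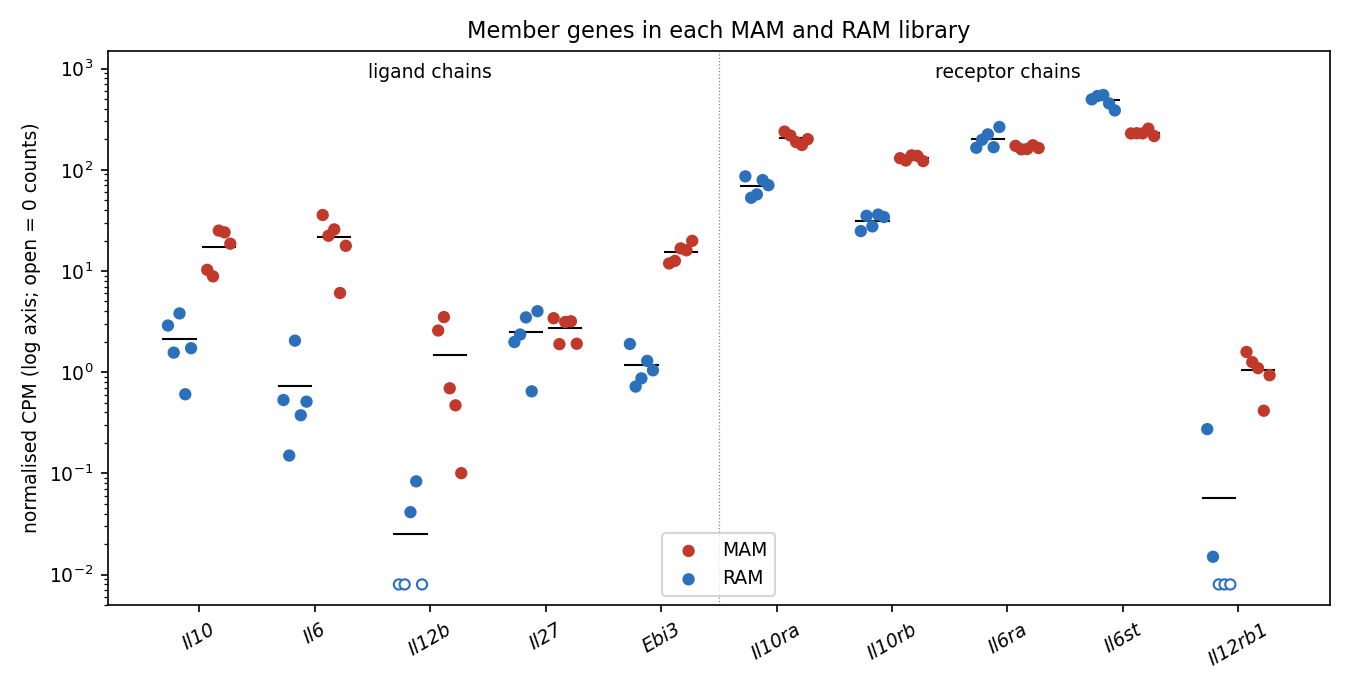
Normalised CPM on a log axis for each of the 10 genes in 5 MAM (red) and 5 RAM (blue) libraries, with black bars for group means and open circles for libraries with 0 counts. Il10, Il6, Ebi3, Il10ra and Il10rb did not overlap between the groups and were higher in MAMs, Il6st did not overlap and was lower, and Il27 and Il6ra overlapped.

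Il10 (ENSMUSG00000016529.5, chromosome 1 from 131019845 to 131024974, plus strand, 5 exons) encodes IL-10. MAM replicates 1 to 5 had 10.3, 8.85, 25.1, 24.1 and 18.6 CPM, and RAM replicates 1 to 5 had 2.89, 1.56, 3.81, 0.605 and 1.73 CPM. Each MAM library was above each RAM library, but MAM replicates 1 and 2 were well below the other 3 MAM libraries. MAMs averaged 17.4 ± 7.56 CPM and RAMs 2.12 ± 1.25 CPM (SD, n = 5 each). The log2 fold change was 3.03 (SE 0.456, edgeR adjusted p = 4.0e-05), an 8.19-fold difference. It rested on 472 to 1330 counts per MAM library and on 29 to 184 per RAM library.

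Il6 (ENSMUSG00000025746.11, chromosome 5 from 30013114 to 30019981, plus strand) encodes the pro-inflammatory cytokine IL-6, and it had the widest difference of the 8 tested genes. MAM replicates 1 to 5 had 35.8, 22.3, 25.8, 6.06 and 17.7 CPM, and RAM replicates 1 to 5 had 0.531, 0.150, 2.05, 0.376 and 0.512 CPM. The lowest MAM library, replicate 4, was still above the highest RAM library, replicate 3. MAMs averaged 21.5 ± 10.9 CPM and RAMs 0.724 ± 0.757 CPM (SD, n = 5 each). The log2 fold change was 4.91 (SE 0.639, edgeR adjusted p = 9.5e-06), with 335 to 1759 counts per MAM library and 10 to 99 per RAM library. Without RAM replicate 3 it was 5.78, the highest of the values with a library left out. Fibroblasts also make IL-6. The 5 tested genes of the list for fibroblasts and endothelium were higher in MAMs. All 5 passed the limit on level through MAMs only, so they had to be higher there. The 7 genes of that list, of which Kdr was the most abundant, summed to 59.8, 42.2, 89.1, 95.7 and 63.7 CPM in MAM replicates 1 to 5. The part of stromal RNA in the Il6 difference was not tested.

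Ebi3 (ENSMUSG00000003206.7, chromosome 17 from 55952640 to 55957022, plus strand) encodes the soluble receptor-like chain of IL-27. Its levels were 11.9, 12.6, 16.7, 16.0 and 19.9 CPM in MAM replicates 1 to 5 and 1.90, 0.721, 0.870, 1.29 and 1.04 CPM in RAM replicates 1 to 5. Group means were 15.4 ± 3.25 CPM for MAMs and 1.17 ± 0.463 CPM for RAMs (SD, n = 5 each). The groups were far apart, and the spread within MAMs was narrower than for Il10 or Il6, with a coefficient of variation of 21.1% against 43.5% for Il10 and 50.6% for Il6. The log2 fold change was 3.72 (SE 0.321, edgeR adjusted p = 1.0e-07), or 13.2-fold. An antisense gene, Gm16712, covers 270 exonic bases of Ebi3, and because no strand setting is stated for the counting, its reads cannot be told apart from those of Ebi3.

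Il27 (ENSMUSG00000044701.5, chromosome 7 from 126589010 to 126594941, minus strand) encodes p28, the partner of EBI3, and did not pass the test. MAM replicates 1 to 5 had 3.42, 1.89, 3.13, 3.18 and 1.91 CPM, and RAM replicates 1 to 5 had 1.99, 2.36, 3.48, 0.647 and 4.01 CPM. The groups overlapped, and both the lowest and the highest library were RAMs. The log2 fold change was 0.12 (SE 0.486, edgeR adjusted p = 0.854), and an interval of 2 standard errors ran from -0.86 to 1.09, so a 2-fold difference was within its upper end. The sign turned to -0.046 under upper-quartile normalization and to -0.13 without RAM replicate 4. On FPKM the difference was larger, at 0.59 on the log2(FPKM + 1) scale and 1.01 on the log2(FPKM + 0.1) scale, and did not pass either (limma adjusted p = 0.143 and 0.145). Il27 shares 103 exonic bases with Apobr on the opposite strand, which was at 101 to 106 CPM across MAMs against 112 to 132 across RAMs, so the low Il27 counts are uncertain.

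Il12b (ENSMUSG00000004296.14, chromosome 11 from 44400063 to 44414033, plus strand), the p40 chain, was under the limit for testing in both groups. It had 127, 187, 31, 26 and 7 counts in MAM replicates 1 to 5, or 2.58, 3.51, 0.693, 0.470 and 0.101 CPM. RAM replicates 1, 2 and 5 had 0 counts, which allows up to 3 counts each, and RAM replicates 3 and 4 had 2 and 4. The MAM libraries were all above the RAM libraries, yet MAM replicate 2 was 34.9 times MAM replicate 5. Fitted without a limit on level, the log2 fold change was 5.81 (SE 1.41, edgeR adjusted p = 0.00273), and in that fit 21.6% of 18035 genes were higher in MAMs at an adjusted p under 0.05. Dendritic cells are a known source of p40. Of the 9 dendritic cell genes 4 were tested. Clec9a and Ccl22 were lower in MAMs and Batf3 and Ccr7 were higher, beside 27.3% and 28.9% of all genes tested. Clec9a and Ccl22 passed the limit on level through RAMs only and Ccr7 through MAMs only, so their directions were set by that limit. Of the 5 too low to test, Zbtb46 ran from 1.68 to 3.15 CPM in MAMs, Xcr1 from 0.559 to 3.07 and Cd209a from 0 to 2.92. Flt3 had 1 count in MAM replicate 4 and 0 in the other MAM libraries, and Siglech was at 0 in all MAM libraries. Ccr7 ran from 0.134 to 5.81 CPM in MAMs. Across MAMs, Ccr7, Zbtb46 and Cd209a were highest in replicate 2, Xcr1 and Clec9a in replicate 1, and Batf3 and Ccl22 in replicate 5. The 9 genes summed to 19.8, 19.6, 9.35, 14.3 and 21.4 CPM in MAM replicates 1 to 5. The part of other cells in Il12b was not tested.

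The p40 partners were also low. Il12a, for p35, had 3 counts in MAM replicate 4 and 0 in every other library. Il23a, for p19, had 1.59, 1.07, 0.112, 2.44 and 1.74 CPM in MAM replicates 1 to 5 and 0.0414 to 0.839 in RAMs, with overlap. MAM replicate 3, which had the least Il23a, had an Il12b level between those of the other MAM libraries.

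**Figure D2:**
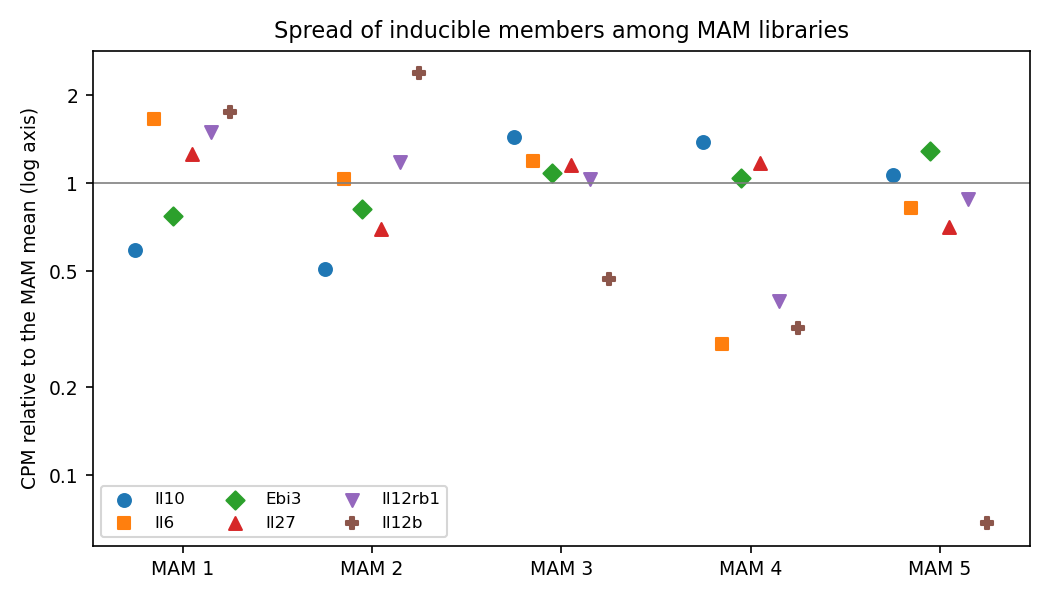
CPM of 6 members in each of the 5 MAM libraries relative to the mean of that gene over MAMs, on a log axis. Il10 was below its mean in MAM replicates 1 and 2 and above it in replicates 3 to 5, and Il12b was the other way round.

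Within MAMs, the ligand genes did not all vary in the same direction. MAM replicates 1 and 2 had the lowest Il10 and Ebi3 levels and the highest Il12b levels, and replicates 3, 4 and 5 had the reverse. Il6 was highest in replicate 1 and lowest in replicate 4, and Il12rb1 had the same extremes. With 5 libraries no correlation was computed. Sums of marker genes also set replicates 1 and 2 apart from replicates 3 to 5, with 23.9 and 23.1 CPM of neutrophil genes against 52.8 to 83.0, 39.4 and 36.6 CPM of lymphocyte genes against 23.6 to 28.8, and 541 and 482 CPM of alveolar macrophage genes against 238 to 375. Single genes made up much of these sums. Across MAMs, Mmp8 ran from 18.4 to 64.7 CPM, Cd2 from 10.8 to 34.2 and Marco from 89.7 to 389. Chil3, also an alveolar macrophage gene, ran from 89.1 to 118 CPM. The part of other cells in the spread of the ligand genes was not tested, and the labels give no batch.

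The receptor chains of IL-10 were both higher in MAMs. Il10ra (ENSMUSG00000032089.16, chromosome 9 from 45253837 to 45269149, minus strand), the ligand-binding chain, was at 238, 218, 188, 176 and 201 CPM in MAM replicates 1 to 5 and at 86.1, 52.9, 57.1, 79.1 and 70.5 CPM in RAM replicates 1 to 5. The log2 fold change was 1.56 (SE 0.134, edgeR adjusted p = 1.0e-07). Il10rb (ENSMUSG00000022969.13, chromosome 16 from 91406164 to 91425834, plus strand), the shared chain, was at 130, 123, 139, 137 and 122 CPM in MAM replicates 1 to 5 and at 24.8, 35.1, 27.6, 36.1 and 34.1 CPM in RAM replicates 1 to 5. Its log2 fold change was 2.05 (SE 0.116, edgeR adjusted p = 7.8e-10). No MAM library overlapped a RAM library for either chain, and the MAM libraries lay close together for Il10rb, with a coefficient of variation of 5.94%. Another annotated gene model, Gm21970, overlaps 569 exonic bases of Il10rb, so its count is uncertain to that extent.

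The IL-6 receptor chains went the other way or moved little. Il6ra (ENSMUSG00000027947.11, chromosome 3 from 89864059 to 89913196, minus strand), which binds IL-6, was at 172, 159, 160, 175 and 164 CPM in MAM replicates 1 to 5 and at 165, 198, 224, 167 and 265 CPM in RAM replicates 1 to 5. The groups overlapped, and RAM replicate 5 stood highest, with means of 166 ± 7.06 CPM for MAMs and 204 ± 41.8 CPM for RAMs (SD, n = 5 each). An antisense gene, Gm42809, covers 242 exonic bases of Il6ra. The log2 fold change was -0.29 (SE 0.116, edgeR adjusted p = 0.0425), and without RAM replicate 5 it was -0.18 with an adjusted p of 0.123. Over the alternatives with another test, filter or scaling, or with a library left out, Il6ra did not pass in 14 of 21. The 14 include the test against a 2-fold change, which a log2 fold change of -0.29 could not pass. Il6st (ENSMUSG00000021756.12, chromosome 13 from 112464070 to 112510086, plus strand), for gp130, was at 229, 230, 229, 255 and 215 CPM in MAM replicates 1 to 5 and at 496, 536, 548, 452 and 386 CPM in RAM replicates 1 to 5. Each RAM library was above each MAM library, at means of 484 ± 66.4 and 232 ± 14.4 CPM (SD, n = 5 each), and the log2 fold change was -1.06 (SE 0.0940, edgeR adjusted p = 1.4e-07). That is just past 2-fold, and a test against a 2-fold change itself did not call Il6st (adjusted p = 0.363, edgeR).

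Il12rb1 (ENSMUSG00000000791.9, chromosome 8 from 70808449 to 70821424, plus strand), the receptor chain for p40, was under the limit for testing. It had 78, 67, 49, 23 and 65 counts in MAM replicates 1 to 5 and 16, 1, 0, 0 and 0 in RAM replicates 1 to 5. The lowest MAM library, at 0.416 CPM, was above the highest RAM library, at 0.274 CPM. Without a limit on level the log2 fold change was 4.14 (SE 1.37, edgeR adjusted p = 0.0218). Its partner in the IL-12 receptor, Il12rb2, went the other way, with 5.79 CPM in MAMs and 86.7 in RAMs (log2 fold change -3.90, SE 0.308, edgeR adjusted p = 3.7e-08). Lymphocytes also carry this chain, and the sum of lymphocyte genes was higher in RAMs. Cd2, at a mean of 282 CPM in RAMs and 21.1 in MAMs, made up most of that sum in RAMs. It alone of the 4 tested genes of that list differed. Cd3e averaged 1.22 CPM in RAMs and 1.58 in MAMs, with overlap. Cd3d and Cd3g averaged 0.198 and 0.364 CPM in RAMs and 0.362 and 0.0736 in MAMs. The part of lymphocytes in the Il12rb2 difference was not tested.

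**Figure D3:**
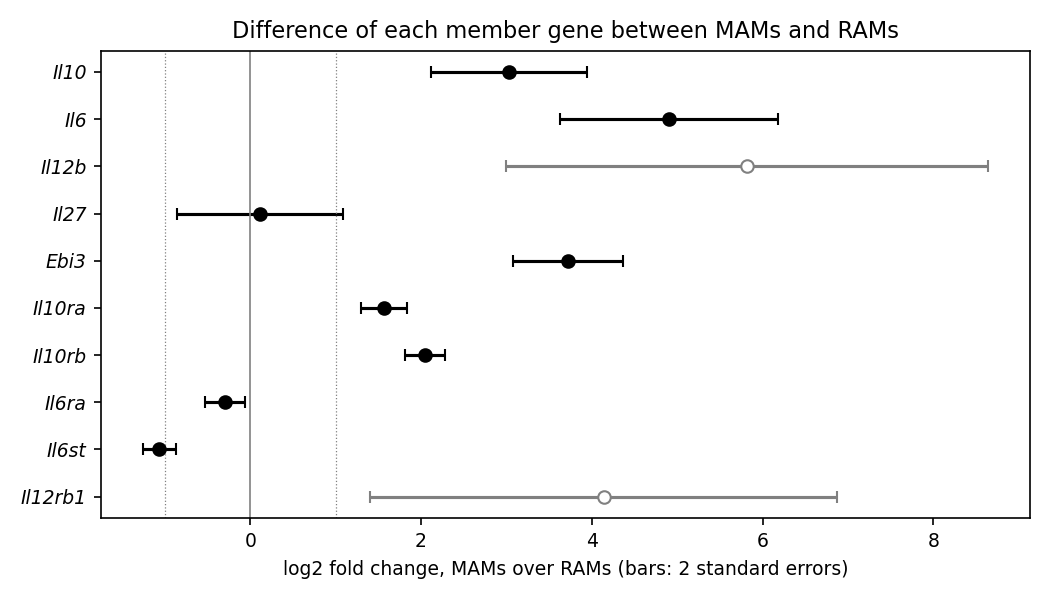
Log2 fold change of MAMs over RAMs for each member, with bars of 2 standard errors. Filled points are the 8 tested genes, open grey points are Il12b and Il12rb1 from the fit without a limit on level, and dotted lines mark a 2-fold change. Il6 was highest among filled points at 4.91 and Il6st lowest at -1.06.

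Scaled by length, the chains of the IL-10 and IL-6 receptors stood above the ligands in both groups, and Il12rb1 did not. In MAMs the order by mean FPKM was Il10rb (69.8 ± 3.61, SD, n = 5), Il10ra (54.4 ± 6.91), Il6ra (52.0 ± 2.31), Il6st (38.4 ± 2.38), Ebi3 (24.2 ± 4.51), Il6 (12.2 ± 5.32), Il10 (10.9 ± 5.21), Il27 (2.31 ± 1.28), Il12b (0.574 ± 0.564) and Il12rb1 (0.445 ± 0.190). The libraries of Il10ra and Il6ra, of Il6 and Il10, of Il27 and Il12b, and of Il12b and Il12rb1 overlapped, and the other neighbors in this order did not. In RAMs the order was Il6st (82.4 ± 11.7 FPKM, SD, n = 5), Il6ra (64.8 ± 13.9), Il10ra (18.7 ± 4.01), Il10rb (17.1 ± 2.64), Ebi3 (1.57 ± 0.653), Il27 (1.20 ± 0.803), Il10 (0.633 ± 0.413), Il6 (0.297 ± 0.370), Il12rb1 (0.0267 ± 0.0531) and Il12b (0.0117 ± 0.0160). There the IL-6 receptor chains stood above those of IL-10, and only the steps from Il6ra to Il10ra and from Il10rb to Ebi3 were free of overlap.

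The balance within each receptor was compared by the ratio of its chains in each library, which does not depend on library scaling. The log2 ratio of Il6ra to Il6st, from counts per length, averaged -0.12 ± 0.072 for MAMs and -0.90 ± 0.41 for RAMs (SD, n = 5 each). It was higher in MAMs by 0.78 (exact permutation test, two-sided, p = 0.0159, adjusted over 2 ratios p = 0.0317). The groups overlapped, since RAM replicate 5, with a ratio of 0.881, lay within the MAM range of 0.880 to 0.978. The log2 ratio of Il10ra to Il10rb was 0.76 ± 0.23 in MAMs and 1.25 ± 0.43 in RAMs (SD, n = 5 each). It was lower in MAMs by 0.48 on the log2 scale, with overlap (exact permutation test, two-sided, p = 0.0476, adjusted p = 0.0476), and with the FPKM of the authors the exact permutation p was 0.0556. Which chain was the more abundant depended on the quantification. In MAMs the mean ratio of Il10ra to Il10rb was 1.70 from counts per merged exon length and 0.776 from FPKM, and that of Il6ra to Il6st was 0.922 and 1.36. The quantifications differ in software, gene models and length, and their parts were not tested.

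**Figure D4:**
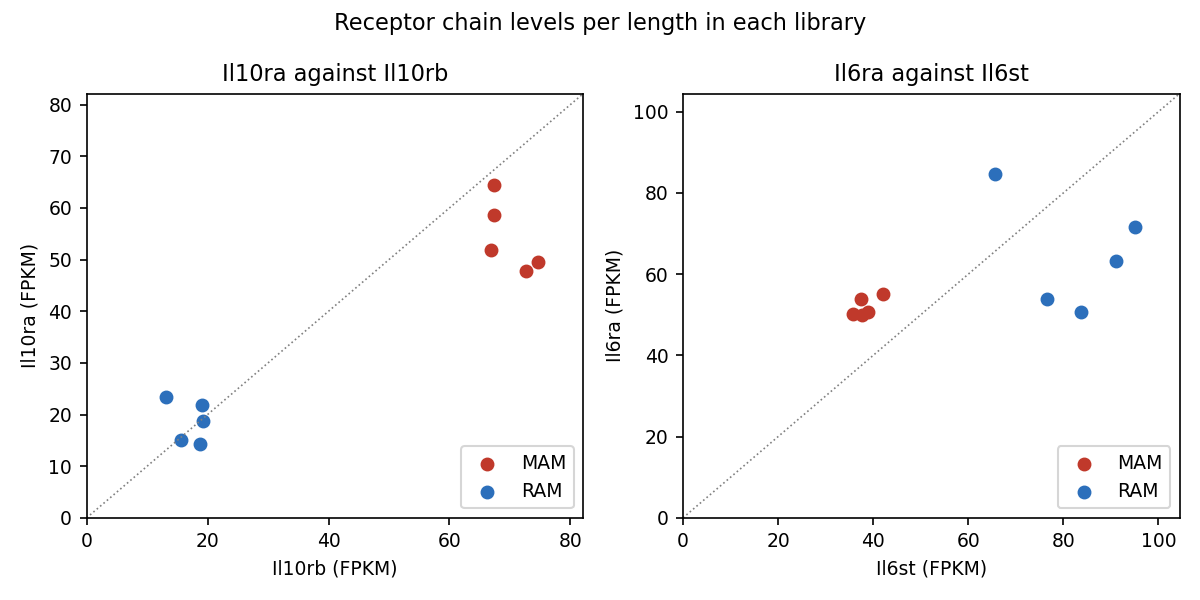
FPKM of the ligand-binding chain against the shared chain in each library, for the IL-10 receptor (left) and the IL-6 receptor (right), with a dotted line of equal levels. MAMs (red) lay at 66.9 to 74.7 FPKM of Il10rb against 13.2 to 19.2 in RAMs (blue), and at 35.7 to 42.1 FPKM of Il6st against at least 65.6.

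Other genes of the same families were mostly too low to test. Of 11 other IL-10 family genes, 1 was tested, Il20rb, a receptor chain for IL-20 cytokines, which was lower in MAMs (log2 fold change -1.77). Of the 11, Il19, Il20, Il22, Ifnl2, Ifnl3 and Il20ra had 0 counts in every library. Of 14 other IL-6 family genes 7 were tested, of which 3 were higher in MAMs and none was lower, beside 28.9% and 27.3% of all genes tested. Lifr and Il31ra were among the 7 through their level in MAMs only, so Lifr had to be higher there. Lifr, the receptor chain that joins gp130 to bind leukemia inhibitory factor, was at a mean of 70.1 CPM in MAMs, from 50.1 to 87.9, against 1.13 in RAMs (log2 fold change 5.94, SE 0.242, edgeR adjusted p = 1.8e-11). The ligands Osm, for oncostatin M, and Clcf1 rose by 0.70 and 0.73 on the log2 scale, and Osm was the most abundant of this list, at 37.4 FPKM in MAMs and 22.7 in RAMs. Of 5 other IL-12 family genes, Il12rb2 and Il27ra were tested, and Il27ra, the private chain of the IL-27 receptor, had a log2 fold change of 0.19 (edgeR adjusted p = 0.709).

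All 14 genes of the list for JAK-STAT signaling and its inhibitors were tested, with 11 higher and 2 lower in MAMs, beside 28.9% and 27.3% of all genes tested, and a median log2 fold change of 0.58. Stat4, which carries the IL-12 signal, was at 19.8 to 35.0 CPM across MAMs against 0.146 to 0.533 across RAMs, and rose by 6.10. It passed the limit on level through MAMs only, so it had to be higher there. Socs3, the feedback inhibitor that binds gp130, was at 68.4 to 116 CPM across MAMs against 1.88 to 6.58 across RAMs, and rose by 4.43. Stat3, through which IL-10 and IL-6 signal, rose by 0.45 only. Cish, a feedback inhibitor of STAT5 signaling, and Tyk2, the kinase on IL-10RB, had log2 fold changes of -1.48 and -0.38.

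Of a list of 14 genes known to respond to IL-10 in macrophages, 14 were tested and 14 were higher in MAMs at an adjusted p under 0.05, beside 28.9% of all genes tested, and 10 were differentially expressed upward. The median log2 fold change was 2.79. Of the 14, 3 passed the limit on level through MAMs only, namely Tnip3, Cd163 and Ddit4, so these 3 had to be higher there. Tnip3, an inhibitor of NF-kappa B signaling, had the highest log2 fold change (6.20), from 1.48 CPM in RAMs to 109 in MAMs. Cd163, the haptoglobin-hemoglobin scavenger receptor, rose by 5.83, and Hmox1, which degrades heme, was the most abundant at 2142 FPKM in MAMs and 126 in RAMs. These genes also respond to other signals. The list was chosen with earlier results of these data known, and it was not tested as a set.

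The 20 genes that control transcription or mRNA decay of Il10, Il6 and Il12b could all be tested, with 11 higher and 2 lower in MAMs, beside 28.9% and 27.3% of all genes tested, and a median log2 fold change of 0.70. Maf, an activator of Il10 transcription, was at 207 to 347 CPM across MAMs against 2.21 to 3.19 across RAMs (log2 fold change 6.72, SE 0.163, edgeR adjusted p = 5.7e-14). Ahr, a ligand-activated transcription factor, rose by 5.38. Maf, Ahr and Arid5a passed the limit on level through MAMs only, so they had to be higher there. Batf and Cebpd fell by 0.66 and 1.42 on the log2 scale. The most abundant was Zfp36, which promotes decay of cytokine mRNAs, at 740 FPKM in MAMs and 419 in RAMs. Of 4 genes for the release of soluble IL-6 receptor, Rhbdf2 (1.36), Adam10 (0.88) and Adam17 (0.47) had higher levels in MAMs on the log2 scale. Among all genes tested, 28.9% were higher. Rhbdf1, the other gene of the 4, passed the limit on level through RAMs only (log2 fold change -0.46, edgeR adjusted p = 0.570). The most abundant of the 4 was Adam17.

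**Figure D5:**
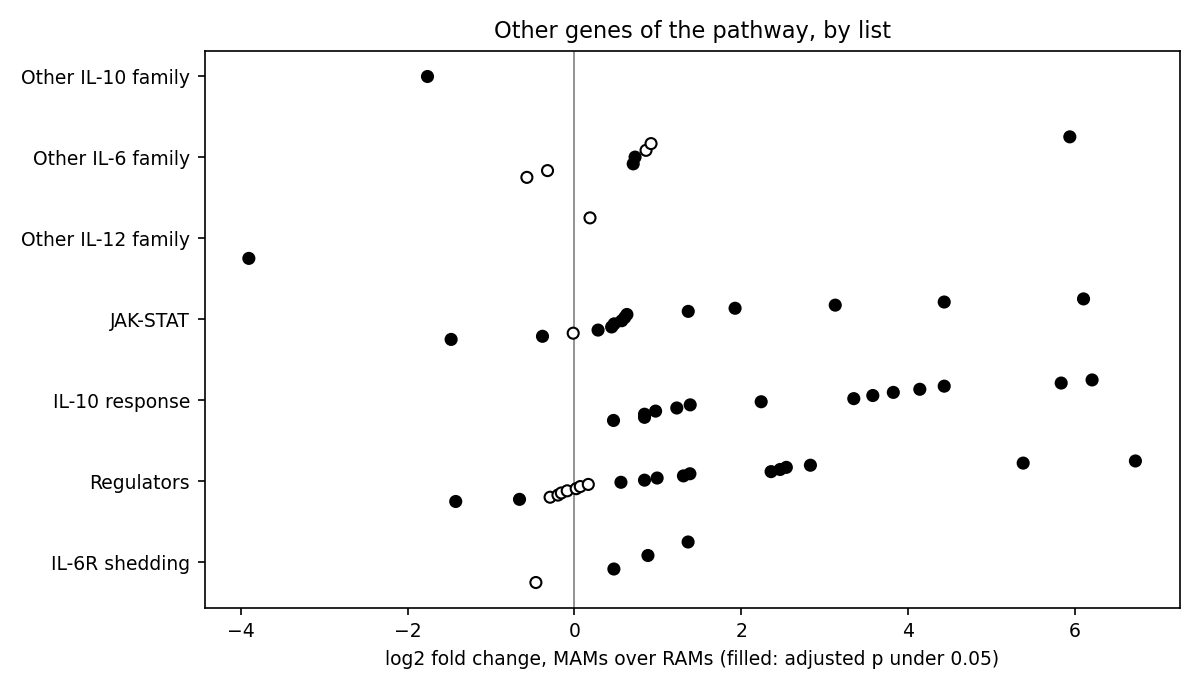
Log2 fold change of MAMs over RAMs for the tested genes of 7 lists, with filled points for an adjusted p under 0.05. The 14 IL-10 response genes were all to the right of 0, from 0.47 to 6.20, and the other lists had genes on both sides or too few tested genes.

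The genes whose levels followed Il6 and Il6st most closely were taken from 11011 genes by Pearson's r of log2 CPM, centered within each group, over the 10 libraries. For Il6 they were Ighmbp2 (0.934), Cnpy2 (0.929) and Tbcel (0.924). For Il6st they were Map3k12 (0.964), Nudt5 (0.946) and Klf7 (0.945). The r that 5% of genes exceeded was 0.590 for Il6 and 0.612 for Il6st, and the points share libraries and depth.

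Genes induced by tissue dissociation were examined because Il6 is induced by stress. Of 7 such genes, 4 were higher and 3 were lower in MAMs, beside 28.9% and 27.3% of all genes tested. Of the 7, 1 passed the limit on level through MAMs only. The sum of the 7 was 832 to 924 CPM in MAMs against 917 to 1199 in RAMs. Egr1, the most abundant, fell by 0.97 on the log2 scale, and Hspa1a rose by 3.43. The part of dissociation in the Il6 and Il10 differences was not tested.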

How the data were processed

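Paired reads were aligned by the authors to GRCm38 (mm10) with TopHat2 2.0.13, and those with a unique position were assigned to UCSC RefGene genes by HTSeq 0.6.1, which gave the deposited raw counts. FPKM values, deposited beside them, came from Cufflinks 2.2.1. A strand setting is not given in the sources used here. Lines that name no gene (54.6% to 64.1% of the lines' total) were left out. Genes were tested with counts above 0 and a mean FPKM of at least 1 in either group (11571 genes), with edgeR 4.0.16 in R 4.3.3 (quasi-likelihood test, TMM, no covariate, Benjamini-Hochberg over all genes tested). The study used DESeq2, an alternative here (DESeq2 1.42.0), beside limma 3.58.1 on log2(FPKM + 1) and log2(FPKM + 0.1), RLE and upper-quartile scaling, 3 other filters, a replicate block, a 2-fold test, subtraction of 1% of the other group's level, and each library left out. The fits were tested on simulated data. Receptor ratios used the exact permutation test over 252 splits of 5 against 5 libraries (smallest p 0.00794). Merged exon lengths and positions came from GENCODE M21 on GRCm38, and gene starts from RefSeq. All members were named. Of each list, up to 2 genes with the highest and 2 with the lowest log2 fold change among those that passed, and the most abundant, were named, with the 3 genes most like Il6 and Il6st (mean count of at least 100, 0.5 CPM added before log2). Other named genes were chosen after their values were seen. A gene that this rule names is not reported here. The members and lists were chosen with earlier results of these data known. A count of 0 allows up to 3 counts, for counting error only, because amplified reads that carry no molecular identifier can repeat a molecule. Each sample is 1 mouse or 1 pool of metastases per the study's methods. Figures were drawn with matplotlib 3.10.9.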

Additional observations from a re-analysis of the deposited data

Results flagged for a closer look

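Among 20 sets of 5 libraries (10 genes in each group), 2 had a library far from the others, where the gap to the next library was over 0.71 of the group's range. For 5 normally distributed values chance gives about 1 in 20, but CPM near 0 need not follow that distribution. Il6 in RAM replicate 3 was at 2.05 CPM, against 0.531 for the next RAM library, and Il12rb1 in RAM replicate 1 was at 0.274 CPM (16 counts), against 0.0150 for the next.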

How the results depend on the processing

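Il10, Il6, Ebi3, Il10ra and Il10rb kept their direction and passed the threshold under all 21 alternatives, with log2 fold changes of 2.77 to 3.95, 3.27 to 5.78, 3.31 to 3.97, 1.39 to 1.65 and 1.88 to 2.11. Without a filter 7 members were differentially expressed upward in place of 5, since Il12b and Il12rb1 could then be tested. The count of members differentially expressed downward was 0 in place of 1 in a test against a 2-fold change, where Il6st did not pass. The count with an adjusted p under 0.05 and lower in MAMs was 1 in place of 2, without Il6ra, under no filter, filterByExpr, the replicate block, limma on both FPKM scales and subtraction of 1% of the other group's level, and 1 to 2 with a library left out. Under the replicate block the other counts were unchanged, at 5 members higher and 1 differentially expressed downward, and 40 listed pathway genes higher and 6 lower. Correlations of same-numbered libraries, centered within each group, ran from -0.025 to 0.044. MAM replicates 3 and 5 were closest to the RAM library of the same number, and the other MAM replicates to another RAM library. Such correlations cannot show whether same-numbered samples shared a batch, and the labels give none. Il27 had a log2 fold change of -0.046 under upper-quartile normalization, which moved the median of all genes to -0.18, and of -0.13 to 0.35 with a library left out, the lowest without RAM replicate 4. It was 0.59 with log2(FPKM + 1) and 1.01 with log2(FPKM + 0.1), against 0.12 on counts. For the Il10ra to Il10rb ratio the difference was -0.48 with FPKM (exact permutation p = 0.0556), and -0.61 to -0.31 with a library left out, where it did not pass in 8 of 10 cases. The causes were not tested. Depth limits Il12b and Il12rb1, with 0 to 16 counts per RAM library.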

Other observations

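Irf4, a transcription factor of the list of regulators that was singled out after its values were seen, varied widely among MAMs, with 83.8, 48.5, 25.2, 16.3 and 37.7 CPM in MAM replicates 1 to 5. It was highest in replicates 1 and 2, where Il12b was highest and Il10 lowest. RAM libraries ran from 10.5 to 22.6 CPM and overlapped the MAM libraries, although the group difference passed (log2 fold change 1.31, adjusted p = 0.00581, edgeR's quasi-likelihood test). Osmr, the oncostatin M receptor chain that pairs with gp130, was under the limit for testing, at 2.81, 0.787, 6.02, 1.57 and 0.962 CPM in MAM replicates 1 to 5 and 0 to 0.377 in RAMs. The stromal genes summed to 59.8, 42.2, 89.1, 95.7 and 63.7 CPM in the same MAM libraries. The 5 of them that were tested passed the limit on level through MAMs only, so they had to be higher there. The part of stromal RNA in Osmr was not tested.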
